A study of Mus musculus with 2 samples.

Results

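Genes of B cell precursors and immature B cells were described in B cells sorted from the neonatal and the adult mouse heart. The list was given by gene name and held 9 of the 31053 genes in the files: Vpreb3, Vpreb1, Igll1, Rag1, Rag2, Dntt, Il7r, Sox4 and Cd93. They were followed in droplets with at least 2000 gene UMIs, at most 10% mitochondrial UMIs and a UMI of Cd79a, which encodes the signaling chain of the B cell receptor. A UMI is a molecular tag that marks 1 captured RNA molecule. These droplets, called cells from here on, numbered 2077 of 779448 droplets with a gene UMI in the neonatal library and 3611 of 983353 in the adult library. The neonatal mice were 2 weeks old (15 days in the sample title) and of pooled sexes, and the adult mice were male and 8 weeks old. All were C57BL6/J mice with no treatment given in the labels, and each library pooled the hearts of 6 mice. Live single B cells had been sorted from both ages on the same day after the same digestion. With 1 library per age, no test between the ages was possible, and age, library and sex cannot be told apart. The 95% intervals given here cover counting error only.

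A B cell in the making first joins V, D and J segments of its heavy chain gene with the RAG1 and RAG2 recombinase, while the polymerase encoded by Dntt adds bases at the joints. The new heavy chain is then tried out with a surrogate light chain made of the products of Vpreb1 (or its near-copy Vpreb2) and Igll1, under the influence of interleukin 7. RAG is used again to join the light chain genes, and the cell leaves the bone marrow or fetal liver as an immature IgM-bearing cell, on which Cd93 is a usual surface mark. Vpreb3 encodes a relative of the surrogate light chain that stays in the cell and is still made after the precursor stages, and Sox4 encodes a transcription factor needed early in the lineage.

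Cells of both libraries carried a median of 18 Cd79a UMIs, at a median depth of 6000 UMIs in neonatal and 6131 in adult cells, for 16403180 and 34623240 UMIs in all. Ighm was seen in over 99% of the cells of both libraries. Among markers of other cells, 1 of 8 T cell markers was at 0 in neonatal and none was at 0 in adult cells. The 8 T cell markers summed to 19.3 CPM (UMIs per 1000000 gene UMIs) in neonatal and 26.3 CPM in adult cells, the 7 macrophage markers to 90.8 and 16.4, the 6 endothelial markers to 137 and 117, and the 4 neutrophil markers to 27.1 and 0.0289. Without droplets that had 2 or more markers of another cell type, the log2 ratios of adult over neonatal given below were -1.09 for Vpreb3, -1.77 for Sox4, -1.16 for Cd93, -2.59 for Il7r and -3.48 for Rag1. Barcodes at which both libraries had a cell numbered 2, and 61 neonatal and 45 adult cells lay at barcodes with at least 500 UMIs in both. A count of 0 allowed a share of up to 0.144% of neonatal and 0.0831% of adult cells at 3 counts of the total, and up to 0.177% and 0.102% by the exact interval.

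The genes of immature B cells were present in both libraries and higher in the neonatal one, whereas the genes that define precursors were scarce or not seen. Of the 9 genes, 5 reached 50 UMIs over both libraries (Vpreb3, Sox4, Cd93, Il7r and Rag1) and all 5 were at least 2-fold lower in adult cells, with a median log2 ratio of adult over neonatal of -1.68. Over all 10703 genes with 50 UMIs, 3.96% were at least 2-fold lower in adult cells and 3.25% at least 2-fold higher, and the median log2 ratio was -0.13. Relative to that median, Vpreb3 (-0.97) and Cd93 (-0.95) no longer reached a 2-fold difference, and the same held with only those neonatal cells that had a Y-linked UMI and no Xist UMI (-0.99 and -0.996), so that both lie at the edge of the fold used. With each cell thinned to 2000 UMIs, Cd93 (-0.98) missed it and 4 of the 5 genes remained past it. Rag1 reached 50 UMIs only through its 51 neonatal UMIs, and the other 4 genes were too low in both libraries to be compared by fold. The plot of levels shows the 9 genes in the order of their neonatal level.

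**Figure D1:**
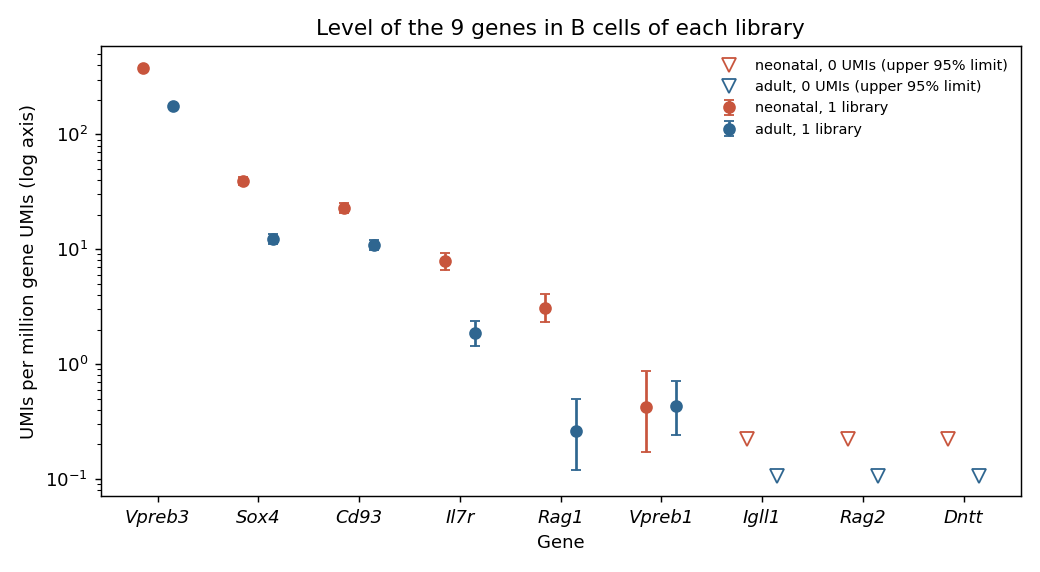
Level of each of the 9 genes in CPM (log axis) in neonatal (red) and adult (blue) cells, 1 library each, with bars for the 95% Poisson interval and open triangles for the upper limit of a gene with 0 UMIs. Vpreb3, Sox4, Cd93, Il7r and Rag1 lie higher in neonatal cells with intervals that do not meet, and Vpreb1 lies at about 0.43 in both.

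Vpreb3 (chr10:75943057-75949657, plus strand, mm10 with GENCODE M21 genes, as for all positions here) had the highest level of the members, with 6255 UMIs in neonatal and 6140 UMIs in adult cells. Its level was 381 CPM (372 to 391) in neonatal and 177 (173 to 182) in adult cells, a log2 ratio of -1.10 (-1.16 to -1.05). As sequenced, 71.4% of neonatal and 56.9% of adult cells had a Vpreb3 UMI. When each cell was thinned to 2000 UMIs, so that depth was equal, 45.9% (43.7 to 48.1) of neonatal and 30.9% (29.4 to 32.4) of adult cells kept one. At that depth, 79 neonatal cells (3.80%) and 15 adult cells (0.415%) had 5 or more Vpreb3 UMIs. A difference in mean level alone also gives a larger ratio of shares at higher counts, and a separate set of Vpreb3-rich cells was not tested. The highest cell as sequenced had 42 UMIs in neonatal and 31 in adult cells, and no single cell carried more than 0.671% of the Vpreb3 UMIs. The direction of Vpreb3 was known from earlier results of these libraries and is not independent evidence.

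**Figure D2:**
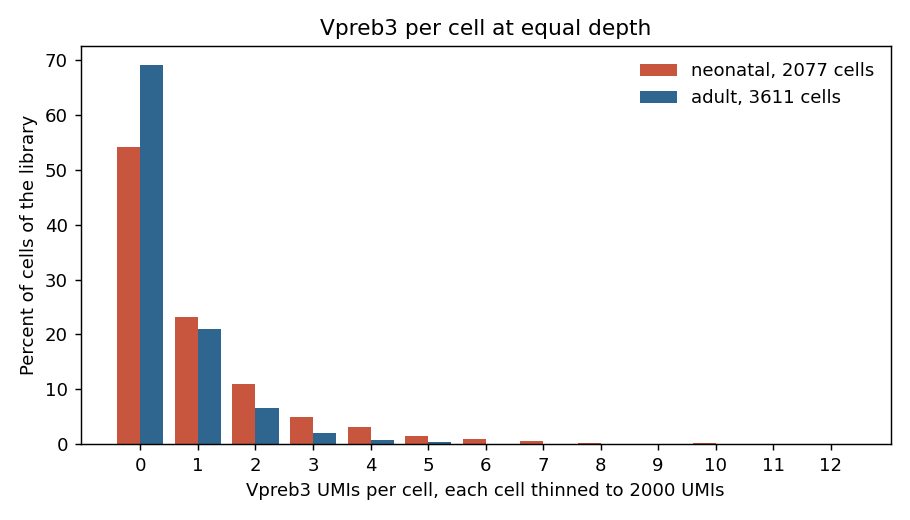
Percent of cells (vertical axis) by the number of Vpreb3 UMIs per cell after thinning to 2000 UMIs (horizontal axis), for 2077 neonatal (red) and 3611 adult (blue) cells. Cells with 0 UMIs make up 54.1% of the neonatal and 69.1% of the adult library, and counts of 6 or more are seen almost entirely in neonatal cells.

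The Vpreb3 level was lower in deeper cells of both libraries. In neonatal cells it was 943 CPM among cells of 2000 to 4000 UMIs, 492 from 4000 to 8000, 289 from 8000 to 16000 and 179 at 16000 or more. In adult cells the corresponding levels were 294, 267, 137 and 133. The neonatal level was the higher in each of the 4 ranges, and the gap was widest in the shallowest cells. Thinning changed the log2 ratio only to -1.07.

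The share of cells with a Vpreb3 UMI from free RNA was estimated as if each cell held the free UMIs of a near-empty droplet. Whether cells held more free RNA than that was not tested. Near-empty droplets (55.9 UMIs on average in neonatal and 92.0 in adult droplets) carried Vpreb3 at 343 and 217 CPM, which would give a Vpreb3 UMI to 0.484% and 0.415% of cells at 2000 UMIs. Among droplets with at least 4 macrophage markers, which should lack the gene, 4 of 10 neonatal ones (median 13370 UMIs) and 2 of 4 adult ones (median 22337 UMIs) had a Vpreb3 UMI, at 41.2 and 22.4 CPM. Those shares are not free of B cell RNA, since Cd79a was itself seen in 7 of the 10 and in all 4 droplets. Cells of 8000 to 16000 UMIs held 289 CPM in the neonatal library, and adult cells of 16000 or more held 133.

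Sox4 (chr13:28948919-28953713, minus strand) had the next highest level, 39.3 CPM (36.3 to 42.5) in neonatal and 12.3 (11.1 to 13.5) in adult cells, from 645 and 425 UMIs. Its log2 ratio was -1.68 (-1.86 to -1.50), and at 2000 UMIs it was seen in 6.26% (5.26 to 7.39) of neonatal and 2.16% (1.71 to 2.69) of adult cells. Sox4 was uneven between cells, with up to 29 UMIs in 1 neonatal cell against 9 in any adult cell, and 34 neonatal but 12 adult cells held 5 or more as sequenced. Without the cells that also had Rag1, its ratio was -1.45. Cd93 (chr2:148436640-148443563, minus strand), which encodes a surface glycoprotein used to tell immature from mature B cells, had 375 UMIs in each library. Its level was 22.9 CPM (20.6 to 25.3) in neonatal and 10.8 in adult cells, a log2 ratio of -1.08 (-1.29 to -0.87). Cd93 was more evenly spread than Sox4, since only 2 neonatal and 3 adult cells had 5 or more UMIs. At 2000 UMIs, 4.48% (3.63 to 5.46) of neonatal and 2.33% (1.86 to 2.87) of adult cells had a Cd93 UMI.

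Il7r (chr15:9505788-9530176, minus strand), which encodes the chain that binds interleukin 7, had 129 UMIs in 54 neonatal cells and 64 UMIs in 31 adult cells. Its level was 7.86 CPM (6.57 to 9.34) in neonatal and 1.85 (1.42 to 2.36) in adult cells, a log2 ratio of -2.09 (-2.54 to -1.65). T cells also use this receptor, and droplets with at least 3 T cell markers carried Il7r at 234 CPM in neonatal and 127 in adult droplets. Cells with at least 2 T cell markers numbered 13 in the neonatal library, where 1 of them held 12 Il7r UMIs (9.30%), and 46 in the adult library, where 5 held 24 (37.5%). Among cells with no T cell marker the levels were 7.07 and 1.30 CPM, so the neonatal level stayed the higher without those cells. Of the neonatal Il7r UMIs, 47 (36.4%) lay in the 24 cells with Rag1, which were 1.16% of the cells. Without the Rag1 cells the log2 ratio was -1.49.

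Rag1 (chr2:101638282-101649501, minus strand) had 51 UMIs in 24 neonatal cells (1.16%, 0.742 to 1.71) and 9 UMIs in 5 adult cells (0.138%, 0.0450 to 0.323). Its level was 3.11 CPM (2.31 to 4.09) in neonatal and 0.260 (0.119 to 0.493) in adult cells, a log2 ratio of -3.58 (-4.79 to -2.54). A cell held 1 to 5 Rag1 UMIs, and 12 of the 24 neonatal and 4 of the 5 adult cells held at least 2. At 2000 UMIs, 10 neonatal (0.481%) and 4 adult cells (0.111%) kept a Rag1 UMI, against an expected 0.00338% and 0.000464% from free RNA. Rag2 (chr2:101624718-101632529, plus strand), which works only together with Rag1, had no UMI in any cell of either library, and neither had Dntt (chr19:41029275-41059525, plus strand). B230118H07Rik on the minus strand overlaps Rag1 on its own strand and Rag2 on the opposite strand, so the Rag1 count is uncertain to that extent. The effect of opposite-strand overlaps on the counts, here and for Vpreb3 (Gm16221) and Sox4 (Gm26735), was not tested. Over all droplets of the neonatal library, cells or not, there were 4 Rag2 and 12 Dntt UMIs, and over all adult droplets 0 and 2.

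The surrogate light chain was close to absent from the cells. Igll1 (chr16:16860671-16863985, minus strand) and Vpreb2 had 0 UMIs in both libraries, with an upper limit of 0.225 CPM in neonatal and 0.107 in adult cells. Vpreb1 (chr16:16868403-16870843, minus strand) had 7 UMIs in 7 neonatal cells and 15 UMIs in 14 adult cells, that is 0.427 (0.172 to 0.879) and 0.433 (0.242 to 0.715) CPM, and the log2 ratio of 0.02 ran from -1.36 to 1.56. Of the 45 Vpreb1 UMIs of all neonatal droplets, 15.6% lay in cells, against 68.9% for Vpreb3, and 8 lay in 1 droplet over the mitochondrial limit. The adult library did not share this, with 71.4% of its 21 Vpreb1 UMIs in cells against 69.0% for Vpreb3. Near-empty neonatal droplets carried Vpreb1 at 4.77 CPM, above its level in the cells, and near-empty adult droplets at 0.966. The Vpreb1 UMIs per near-empty droplet would give a UMI to 0.0267% of neonatal and 0.00889% of adult cells, against 0.337% and 0.388% seen. Igll1 had 7 UMIs over all neonatal droplets and 0 over all adult droplets.

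No cell met the rule set for a precursor, a UMI of at least 2 of Vpreb1, Igll1, Rag1, Rag2 and Dntt. The count was 0 of 2077 neonatal and 0 of 3611 adult cells, which allows a share of up to 0.177% and 0.102% by the exact interval. A UMI of 1 of the 5 genes was seen in 31 neonatal (1.49%, 1.02 to 2.11) and 19 adult cells (0.526%, 0.317 to 0.820), and in each of these cells the gene was either Rag1 or Vpreb1. Igll1, Rag2 and Dntt had no UMI in any cell, so only a cell with both Rag1 and Vpreb1 could have met the rule. The count of 0 thus adds little to the counts of the single genes. A cell that makes Rag1 but none of Vpreb1, Igll1 and Dntt could meet the rule only through Rag2, which no Rag1 cell showed. At this depth a precursor could be missed where its genes are low, so the counts limit the cells with UMIs of 2 such genes and not the cells that make them. The rule did not use light chain counts, and some Rag1 cells with few light chain UMIs are given below. Of a longer list of 13 genes (these 5 with Erg, Lef1, Myb, Bok, Arpp21, Akap12, Kit and Flt3), at least 3 were seen in 39 neonatal (1.88%) and 14 adult cells (0.388%). At 2000 UMIs per cell the counts were 4 and 2. A neonatal cell of 4163 UMIs without Rag1 held 11 Vpreb3, 4 Sox4, 2 Il7r and 51 Ighm UMIs, and 8 of the light chain constant genes. Whether such cells are precursors was not tested. Over all droplets of at least 2000 UMIs, 1 droplet did meet the gene rule, and it fell outside the cells because 19.4% of its 4608 UMIs were mitochondrial. That neonatal droplet held 8 Vpreb1, 3 Igll1, 6 Dntt and 1 Rag2 UMIs and no Rag1 or Il7r UMI. It also held 3 Sox4, 5 Akap12, 3 Lef1, 2 Myb and 1 Vpreb3 UMIs, with 4 Ighm, 1 Igkc, 1 Cd79a and 3 Cd79b UMIs, and no Ighd or H2-Aa UMI. The adult library had no such droplet.

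Cells with a Rag1 UMI differed from the rest of the neonatal cells in most of the genes described here. All 24 had a Vpreb3 UMI, against 71.1% of the other 2053 cells. Sox4 was seen in 12 of them (29.1 to 70.9% by its interval) against 12.7% of the others, Cd93 in 14 (58.3%, 36.6 to 77.9) against 13.2%, and Il7r in 11 (45.8%, 25.6 to 67.2) against 2.09%. No Rag1 cell had Vpreb1, which was seen in only 0.341% of the others, so 24 cells are too few to read this from. Thinned to 2000 UMIs, 7 of 10 Rag1 cells kept Sox4 against 5.95% of the others, and 4 of 10 kept Il7r against 0.968%.

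Of the 24 cells, 4 had 34443 UMIs or more, so levels were compared at no more than 20000 UMIs, a limit chosen after the values were seen. In the remaining 20 Rag1 cells, Vpreb3 stood at 1434 CPM (1247 to 1641) against 410 in 1971 cells without Rag1. Sox4 stood at 700 (571 to 849) against 36.7, Il7r at 245 (171 to 339) against 5.66 and Cd93 at 109 (62.1 to 177) against 23.0. Single cells weighed in these levels, since 1 cell held 14 of the 36 Il7r UMIs and another 29 of the 103 Sox4 UMIs. The intervals do not cover such unevenness between cells. A cell of 13923 UMIs among the 20 also held 34 UMIs of Lyz2, a macrophage marker. Akap12, a scaffold protein gene of the early B lineage list, stood at 421 CPM in the 20 cells against 55.4. Myb, a transcription factor of precursors, stood at 197 against 27.0. Lef1, also of that list, stood at 20.4 (4.20 to 59.6, 3 UMIs) against 13.3 and did not differ beyond its interval. Genes of mature B cells were lower in the Rag1 cells. Ighd, the heavy chain of IgD, stood at 183 against 512, H2-Aa, a class II antigen presentation gene, at 693 against 2387, and Fcer2a, which encodes CD23, at 81.5 against 186. Cr2, which encodes CD21, had 0 UMIs against 29.6 CPM. Over all 24 Rag1 cells, against all others, the contrasts were smaller, with Vpreb3 at 923 against 370 CPM, Sox4 at 329 against 33.2, Il7r at 139 against 5.10 and Cd93 at 74.0 against 21.8. Ighd then stood at 355 against 475, H2-Aa at 1394 against 2351 and Cr2 at 17.8 (6.52 to 38.7) against 27.6, which did not differ beyond its interval. UMIs of the chains of IgM were seen in the 20 cells, with Ighm at 4776 against 3986 CPM. The light chain constant genes summed to 9553 against 13504 CPM, unevenly between the 20 cells. Cells of 4613 and 5853 UMIs held 6 and 18 light chain constant UMIs, whereas cells of 4617 and 5086 UMIs held 132 and 109. Whether the Rag1 cells with few light chain UMIs are precursors was not tested. All 20 cells had a UMI of Ighm and of a light chain constant gene. So had 1970 and 1971 of the other 1971 cells, so a UMI of either did not set the groups apart. Free RNA came to 0.767 light chain constant UMIs per neonatal droplet. Mki67, a proliferation gene, was confined to 3 of the 20 cells, with 10, 13 and 23 UMIs. In that order, these cells of 10750, 12459 and 12313 UMIs held 17, 26 and 24 light chain constant UMIs. Rag1 cells of 8415 and 10907 UMIs held 177 and 187. The 3 cells with Mki67 had no UMI of the B cell marker Ms4a1. Ms4a1 was seen in 70% of the 20 cells and 97.6% of the other 1971.

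**Figure D3:**
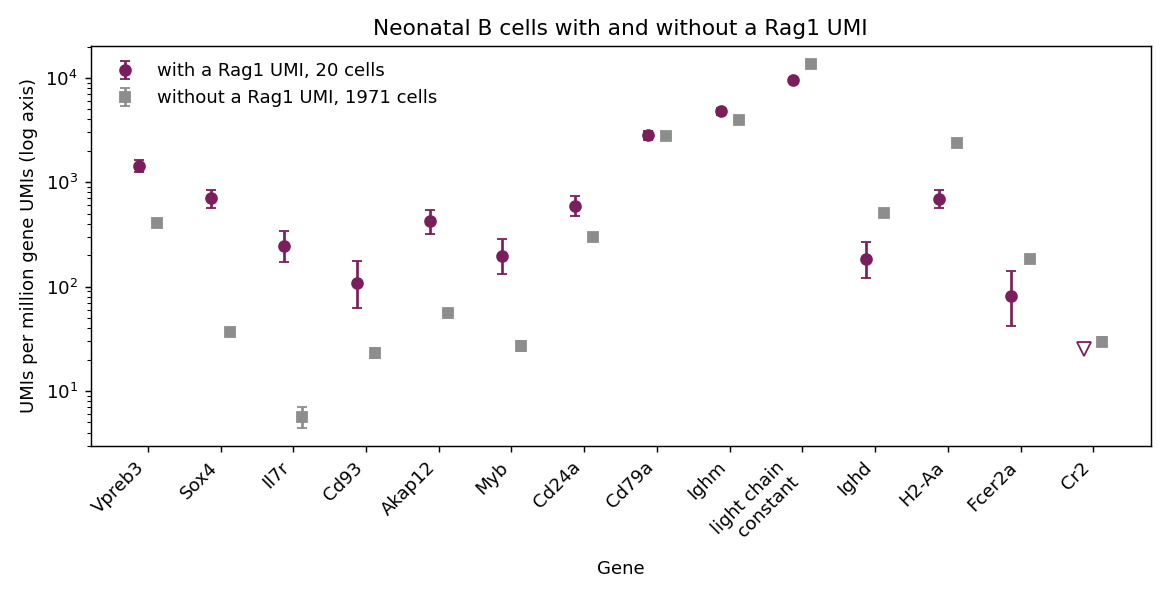
Level of 14 genes or gene sums in CPM (log axis) in 20 neonatal cells with a Rag1 UMI (purple) and 1971 without (gray), all with at most 20000 UMIs, with 95% Poisson bars and an open triangle for the upper limit of a gene with 0 UMIs. Vpreb3, Sox4, Il7r, Cd93, Akap12 and Myb lie higher and Ighd, H2-Aa, Fcer2a and Cr2 lower in the Rag1 cells.

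Single Rag1 cells show how these genes fell together. A cell of 4613 UMIs held 5 Rag1, 12 Vpreb3, 5 Sox4, 1 Il7r, 6 Akap12 and 4 Myb UMIs, with 25 Ighm UMIs and only 6 of the light chain constant genes. A cell of 12313 UMIs held 2 Rag1, 42 Vpreb3, 11 Sox4, 3 Il7r and 9 Akap12 UMIs with 23 Mki67 and no Ighd UMIs. A cell of 6236 UMIs held 3 Rag1, 15 Vpreb3, 15 Sox4, 2 Il7r and 10 Akap12 UMIs with none of Mki67. Others lacked part of the set. A cell of 4057 UMIs held 4 Rag1, 3 Vpreb3, 4 Akap12 and 1 Myb UMIs but none of Sox4, Il7r or Cd93. The 5 adult Rag1 cells held 1 or 2 Rag1 UMIs each. In the 4 of them under 20000 UMIs, Vpreb3 had 28 UMIs (1701 CPM, 1131 to 2459) against 193 CPM in the other adult cells. Akap12 had 11 UMIs in those 4 cells, 668 CPM against 12.9, and H2-Aa and Cr2 had 0.

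Of the 21 cells with a Vpreb1 UMI, none had Rag1, Sox4 or Myb, and 20 held a single Vpreb1 UMI. Among cells without Vpreb1, Sox4 was seen in only 13.1% of neonatal and 6.64% of adult cells. Rag1 was seen in 1.16% and 0.139% of them, and Myb in smaller shares than Sox4. The 21 cells are thus too few to read these absences from. Vpreb3 was seen in 5 of the 7 neonatal and 10 of the 14 adult ones, and Akap12 stood at 60.3 against 56.3 CPM in the neonatal library. In the 7 neonatal ones Vpreb3 stood at 151 CPM against 382 in the others, and in the 14 adult ones at 160 against 177. In the adult ones, Ighd (735 against 714) and H2-Aa (3502 against 3734) were near the level of the other cells, and their median depth was higher (11228 against 6120 UMIs). Vpreb1 is overlapped by Top3b on the plus strand, and it is so close to Vpreb2 that reads of the pair could be split or lost in the authors' counting, so its values are uncertain.

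Some ties between Vpreb3, Sox4 and Cd93 over all cells were seen as sequenced but not at 2000 UMIs. Thinning left a Vpreb3 UMI in 1115 of the 2055 adult cells that had one, and such losses can weaken a tie. As sequenced, Sox4 was seen in 14.4% of neonatal cells with Vpreb3 against 9.78% without, and in 8.76% (7.57 to 10.1) against 3.79% (2.90 to 4.86) of adult cells, at median depths of 6109 and 6180 UMIs in the adult library. Cd93 was likewise seen in 15.1% against 10.3% of neonatal and 9.88% (8.62 to 11.3) against 3.41% (2.56 to 4.43) of adult cells. At 2000 UMIs, Sox4 was seen in 8.81% (7.09 to 10.8) of neonatal cells with Vpreb3 and 4.09% (3.01 to 5.42) of those without. In the adult library the shares were 2.33% and 2.08%, with intervals that overlapped. The Cd93 shares at that depth were 4.30% against 4.63% in neonatal and 2.87% against 2.08% in adult cells, also with overlapping intervals. Adult cells with Cd93 as sequenced had Sox4 in 23.0% of cases against 5.37% without, but they were also deeper (median 9424.5 against 5942 UMIs), and at 2000 UMIs the shares were 7.14% (2.67 to 14.9) and 2.04%. Cells with UMIs of at least 3 members numbered 64 (3.08%) in neonatal and 66 (1.83%) among adult cells as sequenced, and 13 and 3 at 2000 UMIs. At least 4 members were seen together in 15 neonatal and 5 adult cells, and 5 members in 5 neonatal and 0 adult cells.

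The members were next compared within classes of the cell set by Cr2 and Fcer2a, the genes of CD21 and CD23, each called from a UMI at 2000 UMIs per cell. Cells with neither were 70.7% of the neonatal and 48.0% of the adult library, and cells with both were 2.21% and 9.03%. As sequenced, cells with neither were 49.7% and 18.0%, and cells with both were 10.7% and 38.0%. Many cells thus lost their UMIs of these genes in the thinning, and the class sizes at 2000 UMIs do not count the cells that lack the transcripts. In neonatal cells, Vpreb3 was highest in cells with neither (416 CPM, 404 to 428), followed by Cr2 only (375, 330 to 424), Fcer2a only (279, 262 to 297) and both (269, 214 to 334). In adult cells the order was turned, from 149 (144 to 155) with neither and 162 with Cr2 only to 218 with Fcer2a only and 230 (214 to 248) with both. The adult median depths were 6641.5, 7206, 5148.5 and 6857 UMIs in that order, against 5949 to 6100 in the neonatal classes. The part of depth in the order was not tested. In each library the intervals of neither and Cr2 only overlapped, as did those of Fcer2a only and both. With the classes called as sequenced, the adult levels were 137 (127 to 148) with neither, 104 (92.8 to 116) with Cr2 only, 204 with Fcer2a only and 188 with both, so that Cr2 only was lowest, and the neonatal levels were 471, 375, 304 and 280. The adult median depths of the classes as sequenced were 4654, 7553, 4602.5 and 9083 UMIs. The log2 ratio of adult over neonatal at 2000 UMIs went from -1.48 (-1.55 to -1.41) in cells with neither to -0.22 (-0.56 to 0.13) in cells with both. Sox4 went the same way, from -2.10 (-2.35 to -1.85) with neither to -0.86 (-1.23 to -0.49) with Fcer2a only and -0.28 (-1.61 to 1.42) with both. The Cd93 ratio lay between -0.98 and -1.34 in the 4 classes, with intervals that overlapped. Where the classes were called as sequenced, the Vpreb3 ratio was -1.78 with neither, -1.85 with Cr2 only and -0.57 (-0.69 to -0.45) with both, the Sox4 ratio with both was -0.87, and the Cd93 ratio with Cr2 only was -2.62 (-3.68 to -1.63). The size of the differences within a class thus rested on how the class was called, for all 3 genes.

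**Figure D4:**
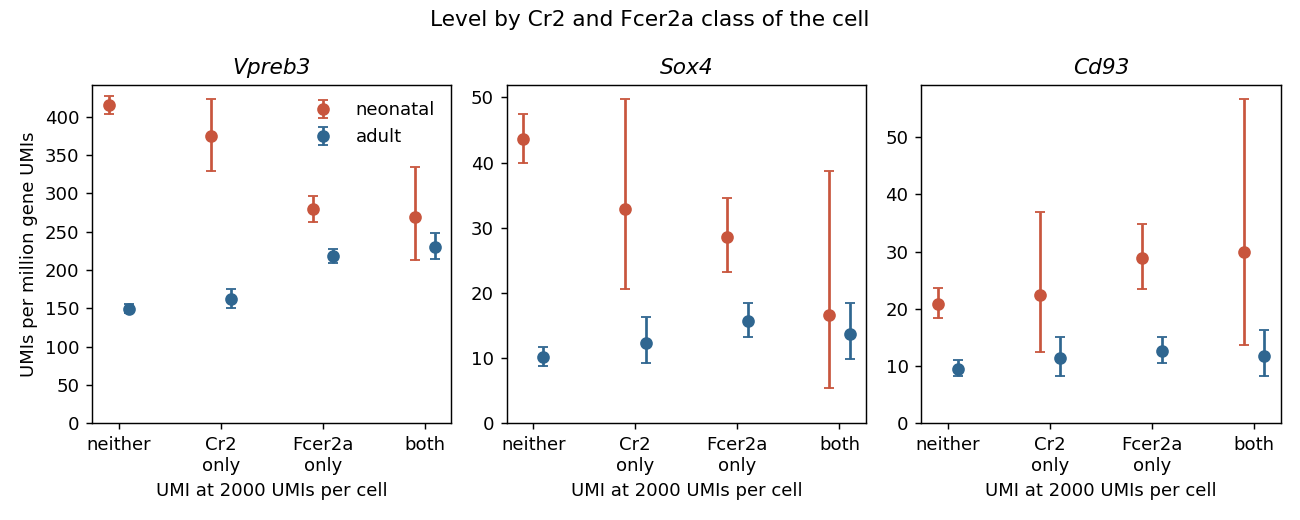
Level of Vpreb3, Sox4 and Cd93 (CPM, each panel with its own axis from 0) in neonatal (red) and adult (blue) cells by whether a Cr2 or Fcer2a UMI was present at 2000 UMIs per cell, with 95% Poisson bars. Vpreb3 falls from 416 to 269 across the classes in neonatal cells and rises from 149 to 230 in adult cells, and Cd93 is higher in neonatal cells in each class.

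The other genes of the pathway moved in part. For the lists below, the share over all 10703 genes was 3.96% at least 2-fold lower in adult cells and 3.25% at least 2-fold higher. A count of 0 in a list of 13 genes or fewer lies near those shares. Of the 13 genes that help to cut and join DNA in V(D)J recombination, all passed the UMI minimum and 0 were 2-fold lower or higher. The largest differences were Lig4 (-0.88), a DNA ligase, and Dclre1c (-0.64), the nuclease Artemis, on the lower side, and Xrcc5 (0.67), of the Ku complex, and Hmgb2 (0.21), a DNA-bending protein, on the higher side. Of 14 genes of interleukin 7 signaling, 2 were at least 2-fold lower in adult cells and 1 was higher. Their median of -0.12 was near the -0.13 over all genes. Socs2 (-2.78, 52 and 16 UMIs) and Cish (-1.56), both feedback inhibitors made after STAT5 activation, were lower, Socs2 having passed the UMI minimum only through its neonatal UMIs, while Bcl2 (1.13), a survival gene, was higher and the kinase gene Jak3 stood at 0.78. Il2rg, the shared receptor chain, hardly differed (0.08).

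Of 12 genes of pro-B and pre-B cells, 8 reached 50 UMIs, and 4 of these were at least 2-fold lower and 1 at least 2-fold higher in adult cells, with a median of -0.95. Myb (-2.38 from 29.0 to 5.57 CPM) and Akap12 (-2.05 from 56.3 to 13.5) were furthest down, with Lef1 (-1.65) and Bcl7a (from 64.6 to 32.2 CPM) after them. Flt3 (1.15), a cytokine receptor, was up and Spn, which encodes CD43, stood at 0.34. Kit, the receptor of stem cell factor, had 10 and 3 UMIs, Erg 2 and 1 and Arpp21 4 and 0, and Bok had no UMI in the cells of either library. Of 10 genes of B cell receptor signaling, which include the Cd79a used to choose the cells, 0 were 2-fold lower or higher, with a median of -0.44 against -0.13 over all genes (Syk -0.63, Lyn -0.55). Of 3 further genes of transitional B cells, Spib stood at -0.90, Ly6d at -0.24 and Cd24a at -0.10, so none was 2-fold lower. Of 6 genes of mature B cells, Cr2 was higher in adult cells (2.14), Ccr7 was lower (-1.23), and Fcer2a stood at 0.71.

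The genes whose level per cell was most like that of each member were looked for among 7603 genes, by the lower of the Pearson correlations in the 2 libraries. Cells of a library share its depth and free RNA, so the correlations are descriptions. For Vpreb3 the first was Chchd10, a gene of a mitochondrial protein (r = 0.47 over 2077 neonatal and 0.36 over 3611 adult cells), followed by H3f3a, Ebf1, Cd79a and Btg1. Ebf1, the transcription factor that sets up the B lineage, had r = 0.37 and 0.25. For Sox4 the first were Tifa (0.17 and 0.13), Akap12 (0.19 and 0.11), Atp1b1, Ebf1 and Dusp2. For Cd93 they were Irs2, Mef2c, Gpr171, Btg2 and Akap12, none above 0.13 in either library. Chchd10 lies on the same strand as Vpreb3 and just upstream of it (Chchd10 at chr10:75933130-75937747 and Vpreb3 at chr10:75943057-75949657, plus strand, mm10, GENCODE M21). Vpreb3 starts 5310 bases after the end of Chchd10. The RefSeq start of Vpreb3 used next lies inside that GENCODE span. Chchd10 itself was less changed than Vpreb3, with 256 CPM in neonatal and 186 in adult cells, a log2 ratio of -0.46 (-0.52 to -0.41).

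The 250 bases before the start of these neighbors are shown because both hold TTTGCAT or its reverse complement ATGCAAA, the 7 letters at the core of the octamer known from B cell promoters, given here in capitals (RefSeq, GRCm38.p6, 5′ to 3′ on the plus strand, Vpreb3 at chr10:75948050-75948299 and Chchd10 at chr10:75932880-75933129).

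Vpreb3: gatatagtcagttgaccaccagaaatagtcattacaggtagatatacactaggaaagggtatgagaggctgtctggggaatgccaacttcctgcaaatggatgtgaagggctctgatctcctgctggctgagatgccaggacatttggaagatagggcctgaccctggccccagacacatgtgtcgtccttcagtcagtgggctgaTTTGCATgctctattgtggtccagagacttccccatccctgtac

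Chchd10: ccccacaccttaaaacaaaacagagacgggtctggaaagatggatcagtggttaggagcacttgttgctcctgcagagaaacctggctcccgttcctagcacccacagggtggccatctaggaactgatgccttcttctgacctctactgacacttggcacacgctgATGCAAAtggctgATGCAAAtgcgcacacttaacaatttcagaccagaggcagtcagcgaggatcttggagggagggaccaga

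The 7 letters begin 44 bases before the start in Vpreb3, and 83 and 70 bases before the start in Chchd10. On either strand they were found in 4.12% of 32851 promoter windows of 250 bases, and at least 2 copies in 0.247%. Of the 9 members, 8 had a promoter in the table, and Vpreb3 was the only one of these 8 with a match. A match is a description of the letters and does not show binding.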

How the data were processed

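Per the labels, B cells were flow-sorted from mouse hearts and made into 10x Genomics Chromium libraries. The deposited files are unfiltered matrices of UMI counts per gene and barcode, which the authors made with Cell Ranger (3.0.2 per the file headers) on mm10. Antibody rows held 3 and 2 UMIs and were not used. Cells were droplets with at least 2000 gene UMIs, at most 10% mitochondrial UMIs and a Cd79a UMI. Doublets had been excluded in the sort, no caller was run, and alternatives without deep or mixed droplets were tried. Levels are UMIs per 1000000 gene UMIs (CPM), with no division by gene length since reads come from 3′ ends, with exact 95% Poisson intervals, shares have Clopper-Pearson intervals, and log2 ratios of adult over neonatal have conditional binomial intervals. A fold was given from 50 UMIs over both libraries, and 2-fold was called. Near-empty droplets were those ranked 45000 to 90000 by UMIs. Thinning drew 2000 UMIs per cell without replacement. The ratios and their intervals were tried on simulated Poisson counts, which leave out the clustering of UMIs in single cells. That trial therefore does not show how well the intervals cover in these data. Of the gene IDs, 99.6% matched GENCODE M21. Text names all members, the genes of each pathway list with the largest ratios, and the 5 genes most like a member. Other genes and single cells, among them the Rag1 cells, were chosen after their values were seen. Members and lists were chosen with earlier results of these data known. Python 3.11.15, numpy 2.4.6 and scipy 1.17.1 were used.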

Additional observations from a re-analysis of the deposited data

Results flagged for a closer look

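A signal appeared outside the cells that were compared. A single neonatal droplet that passed the UMI minimum but not the mitochondrial limit held 18 UMIs of Vpreb1, Igll1, Rag2 and Dntt, 4 of the 5 precursor genes, where no cell of either library held more than 1 of the 5.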

How the results depend on the processing

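No paired analysis was possible because each age is 1 library. The Vpreb3 log2 ratio (-1.10) was negative under all 21 alternatives. It moved beyond its counting interval to -1.03 with at least 5000 UMIs, -1.34 with the UMI minimum of Cell Ranger, -0.64 with a mitochondrial limit of 5% (60 neonatal and 156 adult cells), -1.19 without barcodes found in both libraries, -0.99 with neonatal cells that had a Y-linked UMI and no Xist UMI, and -0.97 on the scale of median ratios. The cause was not tested. The number of members at least 2-fold lower in adult cells (5) was 3 with the 5% limit, with the Y-linked selection and on the median scale, and 4 with each cell thinned to 2000 UMIs. Precursor candidates (0 and 0) numbered 1 in the neonatal library with a mitochondrial limit of 20%, and by construction 31 and 19 when 1 of the 5 genes sufficed. Sox4, Cd93, Il7r and Rag1 ratios were negative under every alternative run, with ranges of -2.93 to -1.39, -1.38 to -0.77, -3.25 to -1.49 and -5.45 to -2.38. The share of cells with a UMI was higher in the neonatal library under all 17 alternatives for Vpreb3, Sox4, Cd93, Il7r and Rag1. Thinned shares exist only for droplets with at least 2000 UMIs. Alternatives with a lower UMI minimum therefore left the shares unchanged and could not test them. Some of the other differences lay within overlapping intervals. With the 5% limit, Cd93 was seen in 1.67% of neonatal and 1.28% of adult cells, and Rag1 in 1.67% and 0%. Settings without the Rag1 cells, without cells over 20000 UMIs and without the top cell of a gene were chosen after seeing the data. With 1 library per age, the spread between animals is unknown.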
